A study of Bos taurus with 14 samples.

Results

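Cumulus cells of cattle (Bos taurus) were compared by what became of the oocyte they had enclosed: 5 libraries labelled Bl+, whose oocytes reached the blastocyst stage, and 5 labelled Bl-, whose oocytes cleaved and then stopped. They are 10 of the 14 libraries of the series, the other 4 being cumulus cells of oocytes that never cleaved (Cl-), which entered 1 alternative fit per scaling and none of the fits below. Each library pooled the cells of 10 cumulus-oocyte complexes, so a library is a pool and not an animal. The labels give no treatment, breed or age, and do not say which pools shared an animal or a day, so p-values measure the spread between these pools, part of which may be technical. Of the 38030 transcripts listed by Ensembl identifier, 10583 (27.8%) had a level of at least 10 TPM (transcripts per 1000000, a share of the library corrected for transcript length) in at least 5 of the 10 libraries, whatever the group.

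Cumulus cells are granulosa-derived somatic cells joined to the oocyte by thin projections with gap junctions. Through these they pass it pyruvate, nucleotides and signals that hold or release meiosis, and the oocyte in turn steers their growth and metabolism. Around ovulation they build a hyaluronan-rich matrix and the complex expands. Because they can be sampled apart from the oocyte, their RNA has been studied as a readout of how well that oocyte will develop. No table at hand paired the transcript identifiers with gene names, so neither markers of cumulus cells nor those of other ovarian cells could be looked up, and transcripts stand below under their identifiers or lengths. In pooled RNA, fewer cells of a type and less RNA per cell cannot be told apart.

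The 10583 transcripts held 95.3% to 96.7% of the TPM of each library. Read back approximately from the steps between low values, the libraries held 29.1 to 39.4 M fragments (M, 1000000), which puts the median transcript of this set at about 1251 fragments per library. Of the set, 8751 transcripts were at 10 TPM or more in all 10 libraries. Just inside the limit stood 243 with exactly 5 such libraries (median level 10.0 TPM), and just outside it 255 with exactly 4 (9.50 TPM). A single transcript, of 1475 bases, passed through 1 group alone, at 10.4 to 13.5 TPM in Bl- and 9.41 to 9.95 TPM in Bl+, and by that choice it had to differ.

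No transcript differed between Bl+ and Bl- past an adjusted p of 0.05 in limma. The smallest adjusted p (Benjamini-Hochberg) was 0.108 on the deposited values and 0.145 after each library was rescaled by its trimmed mean. That step divides a library by a single factor and takes out a shift shared by the bulk of its transcripts. The data also bound the differences. On the rescaled values, the 95% interval of the difference lay inside 1.5-fold of no change, up or down on the TPM + 1 scale, for 8871 transcripts (83.8%) and inside 2-fold for 10159 (96.0%), and the interval reached a median of 0.22 log2 units, or 1.17-fold, to each side. On deposited values the shares were 81.8% inside 1.5-fold and 95.4% inside 2-fold. These intervals are unadjusted and cover the spread between pools.

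The 2 transcripts in each direction with the smallest p are described first, as values only, because their test chose them. ENSBTAT00000018261.6, of 4497 bases, was at 58.0, 68.4, 63.1, 89.2 and 79.3 TPM in Bl+ replicates 10 to 14 and at 134, 129, 118, 149 and 112 TPM in Bl- replicates 5 to 9. Every Bl+ pool lay below every Bl- pool, with a gap of 22.4 TPM between the nearest of them. The difference was -0.84 on the log2(TPM + 1) scale (SE 0.120, n = 5 and 5, adjusted p = 0.108) and -0.80 after rescaling (SE 0.124, adjusted p = 0.145).

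The second lower transcript, ENSBTAT00000024301.4 (3537 bases), was less abundant. Its levels were 10.9, 13.1, 12.9, 16.3 and 14 TPM in Bl+ and 23.5, 25.3, 23.9, 36.8 and 24.9 TPM in Bl-, with means of 13.5 ± 1.94 and 26.9 ± 5.58 TPM (SD, n = 5 each). The groups again did not overlap, and Bl- replicate 8 was the highest library for this transcript and for ENSBTAT00000018261.6. The log2 difference was -0.94 (SE 0.136, adjusted p = 0.108), and -0.90 after rescaling (SE 0.144, adjusted p = 0.145). Within groups the 2 transcripts also moved together: their deviations from the group means, on rescaled values, correlated with r = 0.83 over the 10 libraries. In this measure 20 transcripts had an r of 0.9 or more with ENSBTAT00000018261.6 and 14 with ENSBTAT00000024301.4. Differences over the same 10 libraries do not count as separate observations at any r.

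Among transcripts higher in Bl+, ENSBTAT00000005618.6 (812 bases) was abundant, at 522, 454, 520, 406 and 564 TPM in Bl+ and 321, 367, 354, 333 and 287 TPM in Bl-. The lowest Bl+ pool, replicate 13, still lay 39.5 TPM above the highest Bl- pool. The log2 difference was 0.56 (SE 0.097, adjusted p = 0.134), and 0.61 after rescaling (SE 0.105, adjusted p = 0.145). ENSBTAT00000076068.1 (842 bases) was at 23.1, 23.6, 28.2, 29.1 and 27.8 TPM in Bl+ against 19.1, 15.8, 17.9, 15.2 and 11.7 TPM in Bl-. All 5 Bl+ pools were above all 5 Bl- pools, and the difference was 0.70 (SE 0.125, adjusted p = 0.167), or 0.74 after rescaling (SE 0.119, adjusted p = 0.145). The deviations of these 2 within groups were less alike (r = 0.25 over the same 10 libraries).

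**Figure D1:**
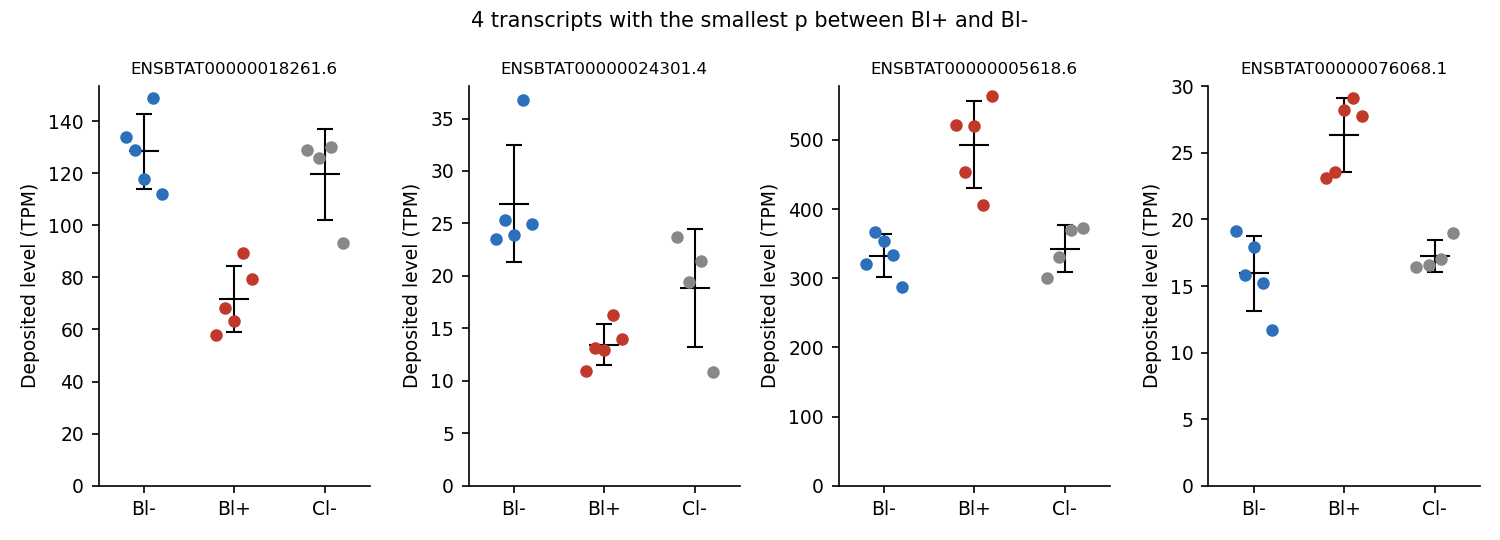
Deposited TPM of the 4 transcripts in each library (points), with the group mean and SD (bars), for Bl-, Bl+ and Cl- on an axis from 0. Bl+ and Bl- do not overlap for any of the 4, which were picked for this difference, and Cl- did not enter the fit.

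The Cl- libraries, unused in the choice, give those levels a further reference. For ENSBTAT00000018261.6 they stood at 129, 126, 130 and 93.4 TPM, with 3 of 4 inside the Bl- range and the last between both groups. For ENSBTAT00000005618.6 they were at 300, 330, 369 and 372 TPM, all below the Bl+ range. For ENSBTAT00000076068.1 they were at 16.4, 16.6, 17.0 and 19.0 TPM, within the Bl- range. ENSBTAT00000024301.4 was spread wider in Cl-, at 23.7, 19.4, 21.4 and 10.8 TPM, from below the lowest Bl+ pool to just above the lowest Bl- pool. These Cl- values were not tested against either group.

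Over the whole set, more transcripts had a small unadjusted p than the 5% that makes 529 of 10583. Transcripts of a library can move together, so that share is not a limit on chance counts and nothing is read from the excess. On deposited values 997 had an unadjusted p under 0.05 in limma, 738 of them lower in Bl+ (6.97% of those tested) and 259 higher (2.45%). After rescaling there were 899, now 447 lower (4.22%) and 452 higher (4.27%). Before rescaling 74.0% of the 997 were lower in Bl+, and after it 49.7% of the 899. Leaving out Bl- replicate 8 changed the deposited count of higher transcripts from 259 to 172. All 447 were among the 738, and 253 of the 259 were among the 452, so rescaling shifted the line between the sides without moving any transcript from lower to higher at that p. The sign of the difference itself turned for 1449 transcripts (13.7%).

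The same shift showed in the count of transcripts whose groups did not overlap. On deposited values all Bl+ pools lay below all Bl- pools for 176 transcripts (1.66%) and above them for 53 (0.501%). On rescaled values the order turned, with 82 below (0.775%) and 111 above (1.05%). The median difference over the set was -0.05 before rescaling and -0.01 after it. Per library, the median log2(TPM + 1) of the set averaged 4.91 ± 0.068 in Bl+ and 4.97 ± 0.062 in Bl- (SD, n = 5 each). The difference was -0.06 (exact two-sided permutation test, p = 0.214, adjusted p = 0.302 over 4 library measures). The 100 most abundant transcripts of a library made up 28.8% ± 0.879 of its total in Bl+ and 27.3% ± 1.11 in Bl-. The exact permutation p was 0.0476 (adjusted p = 0.190). TPM add up to the same total in every library, and a part played by this share in the counts was not tested. With the 100 transcripts of highest mean level removed and the rest rescaled to 1000000, 540 were lower and 376 higher (59.0% lower).

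**Figure D2:**
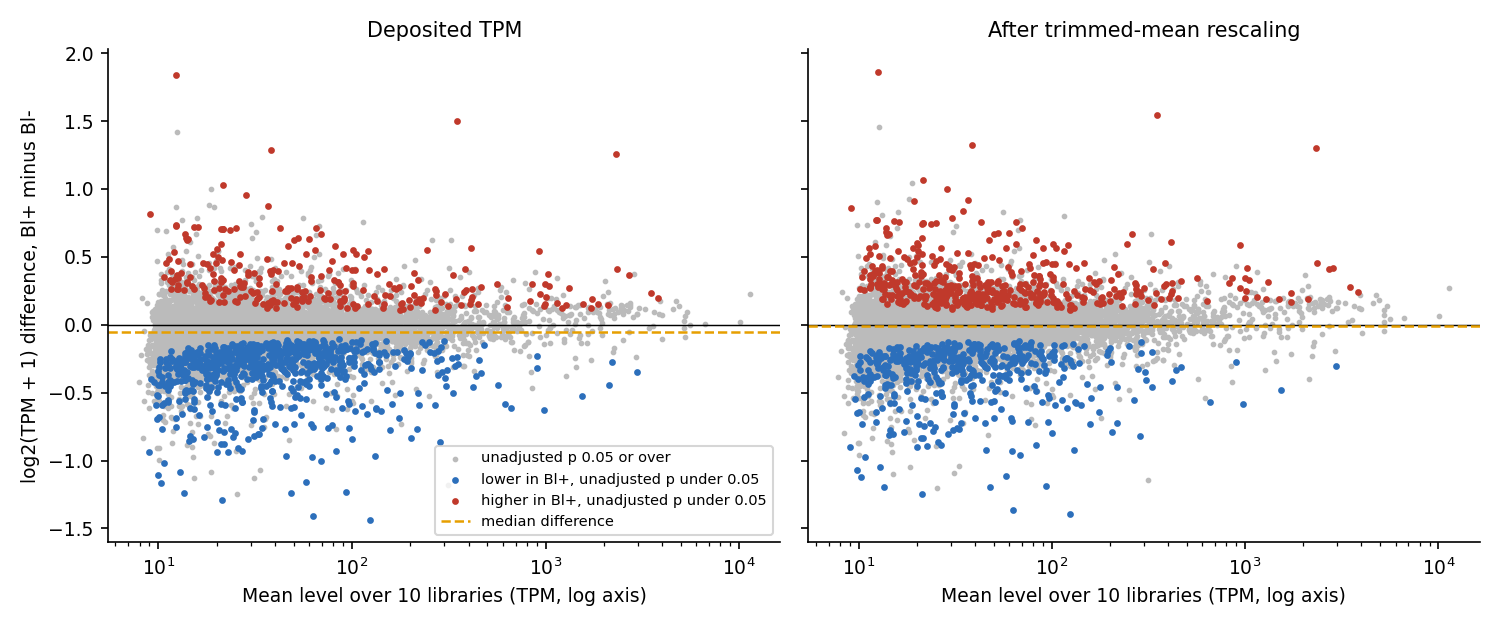
Difference in log2(TPM + 1), Bl+ minus Bl-, against mean level on a log axis for 10583 transcripts, before (left) and after (right) trimmed-mean rescaling, with the median as a dashed line. Blue and red mark an unadjusted p under 0.05: 738 blue and 259 red on the left, 447 blue and 452 red on the right, and no transcript passed an adjusted p of 0.05.

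Differences in mean of over 2-fold on the log2(TPM + 1) scale were few, at 26 of 10583 on deposited values, 19 lower in Bl+ and 7 higher. Of these, 24 were also over 2-fold after rescaling. The groups did not overlap for 2 of the 26, and 17 had an unadjusted p under 0.05, where 2.16% and 9.42% of all tested transcripts did. The same difference chose the 26, so nothing is read from these shares. Both that did not overlap were lower in Bl+. One, of 2356 bases, was at 31.1, 62.9, 55.9, 91.1 and 71.9 TPM in Bl+ and 102, 307, 119, 299 and 99.5 TPM in Bl-, where replicates 6 and 8 stood high. Its difference was -1.44 (SE 0.389, limma adjusted p = 0.310). The other, of 1533 bases, was at 27.9, 10.6, 36.0, 41.0 and 34.8 TPM in Bl+ and at an even 61.6, 62.8, 71.6, 62.0 and 73.5 TPM in Bl-, with a difference of -1.24 (SE 0.295, adjusted p = 0.267).

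The most abundant of the 26, of 1166 bases, was at 3958, 2447, 2798, 2658 and 3653 TPM in Bl+ and 649, 832, 3197, 1072 and 1816 TPM in Bl-. Bl- replicate 7 alone reached the Bl+ range, and the difference was 1.26 (SE 0.376, limma adjusted p = 0.339). A transcript of 576 bases was at 268, 767, 448, 457 and 620 TPM in Bl+ and 118, 189, 323, 142 and 139 TPM in Bl-, with Bl- replicate 7 again in the Bl+ range. Its difference was 1.497 (SE 0.313, adjusted p = 0.231), still 1.41 without Bl+ replicates 12 and 14. These 4 transcripts were chosen after their values were seen. Over the 997 transcripts at an unadjusted p under 0.05, Bl- replicate 7 stood on the Bl+ side of the midpoint between the group means for 331 (33.2%), and the other Bl- libraries did so for 4.41% to 22.4%. Bl+ libraries stood on the Bl- side for 11.9% to 25.4%, the most in replicates 13 (25.4%) and 14 (24.8%). Over the 26 transcripts, the libraries most often on the other side were Bl+ replicate 14 (11), Bl- replicate 7 (9) and Bl+ replicate 13 (8).

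Single pools set several of the large differences. A transcript of 3528 bases was at 365, 388, 436 and 370 TPM in Bl+ replicates 10, 11, 13 and 14 and at 0.595 TPM in replicate 12, while Bl- ran from 174 to 525 TPM. Its difference of -1.18 (SE 1.39, limma adjusted p = 0.790) became 0.41 without that library. In Bl+ replicate 12, 5 of the 26 were under 1 TPM, and 17 of the 26 were still over 2-fold without it. The same library stood out across the set: 28 transcripts (0.265%) were under 1 TPM in exactly 1 library, and for 23 of them that library was Bl+ replicate 12. Those 23 averaged 8.94 to 350 TPM in the other 9 libraries (median 16.8 TPM). None had an unadjusted p under 0.05 between the groups, but a single pool that low widens the spread within Bl+. The choice itself thus made such a p unlikely.

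**Figure D3:**
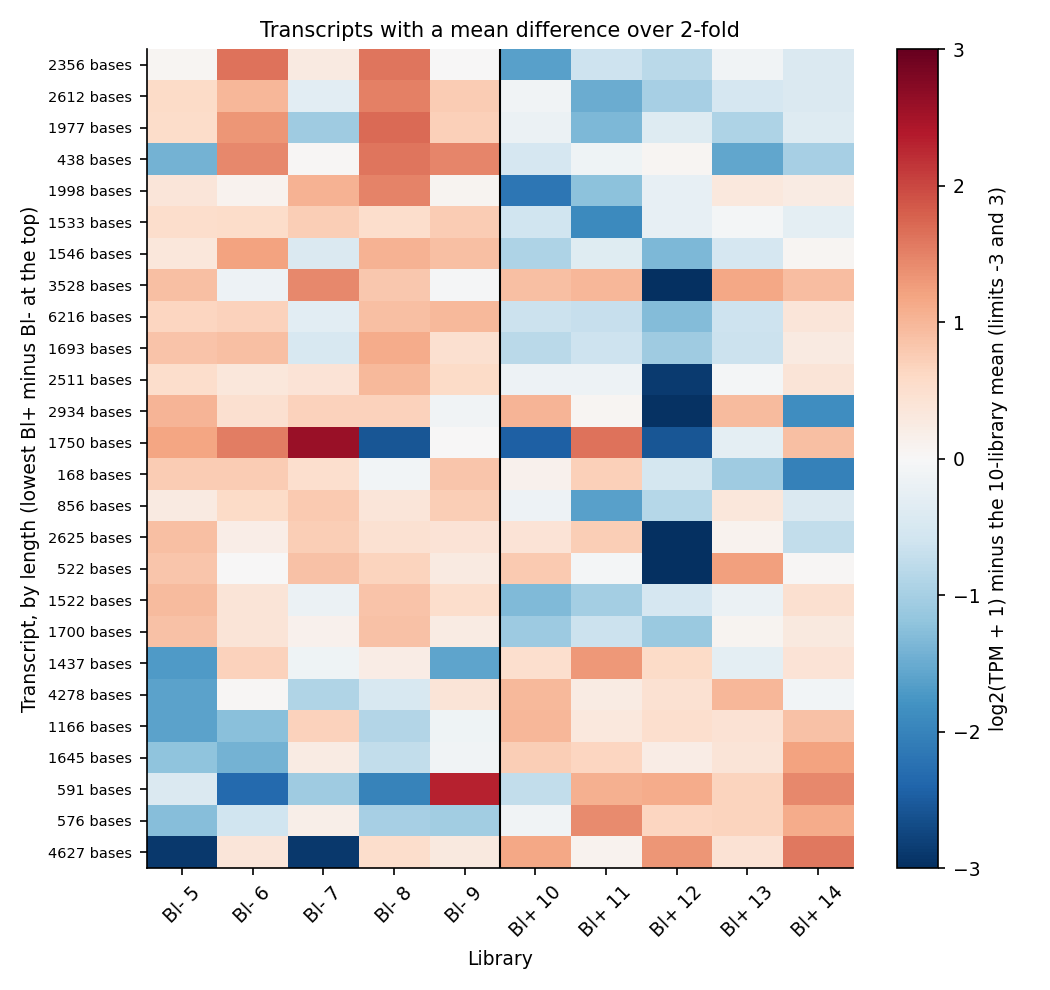
The 26 transcripts with a mean difference over 2-fold (rows, by length) in each library (columns; Bl- left and Bl+ right of the line), as log2(TPM + 1) minus the mean of the 10 libraries, with the colour scale ending 3 units above and below that mean. The groups do not overlap in 2 of the rows, Bl+ 14 is on the Bl- side of the midpoint in 11 rows and Bl- 7 on the Bl+ side in 9, and the darkest blue cells of Bl+ 12 are values of 2.79 TPM or less.

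Abundant and less abundant transcripts differed in the balance of directions. The 270 transcripts at a mean of 500 TPM or more were counted at an unadjusted p under 0.05. On deposited values 27 were higher in Bl+ (10%) and 10 lower (3.70%), against 2.45% and 6.97% of all tested. After rescaling 24 were higher (8.89%) and 5 lower (1.85%), against 4.27% and 4.22% of all tested. The median difference of the 270 was 0.06 before and 0.10 after rescaling. Together they made up 43.0% ± 1.30 of a Bl+ library and 41.2% ± 1.54 of a Bl- library (SD, n = 5 each). Of the 3425 under 20 TPM, 49 were higher (1.43%) and 183 lower (5.34%) on deposited values. After rescaling 97 were higher (2.83%) and 124 lower (3.62%). Each of these shares was below that of all tested on the same scale. The median difference of this class was -0.08 before rescaling and -0.04 after it. The classes between lay in order, with rescaled medians of -0.01, -0.002 and 0.02.

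Length showed a like gradation. Among 772 transcripts of 5000 bases or more, 63 were lower in Bl+ (8.16%) and 8 higher (1.04%) at an unadjusted p under 0.05 on rescaled values. Among 1373 under 1000 bases, 31 were lower (2.26%) and 61 higher (4.44%), the latter near the 4.27% of all tested. The median difference ran from 0.02 in the shortest class through 0.002, -0.01 and -0.03 to -0.07 in the longest. The 447 lower transcripts had a median length of 2682 bases and the 452 higher ones 1962 bases, against 2140 bases for all tested.

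Neither gradation passed an exact test between the groups of pools. Taken per library as the median of the longest class minus that of the shortest, the values were 0.15, 0.07, -0.36, 0.02 and -0.14 in Bl+ replicates 10 to 14 and 0.25, -0.04, 0.15, -0.04 and -0.10 in Bl- replicates 5 to 9. Both groups held libraries with long transcripts high and libraries with them low, and Bl+ replicate 12 was the lowest. The group means differed by -0.09 (exact two-sided permutation p = 0.460, adjusted p = 0.516 over 4 contrasts). The difference was -0.01 without Bl+ replicate 12 and, with the sign turned, 0.05 without replicates 12 and 14. These hold the lowest Bl+ values, so leaving them out had to raise it. Without Bl- replicate 5, the highest Bl- value, it was -0.04. The contrast of the most with the least abundant class was -0.12, -0.04, 0.27, -0.01 and 0.13 in Bl+ and -0.28, -0.02, -0.21, 0.03 and 0.09 in Bl-. There the difference was 0.13 (exact permutation p = 0.230, adjusted p = 0.516), and 0.02 without Bl+ replicates 12 and 14, the highest Bl+ values. Without Bl- replicate 5, the lowest Bl- value, it was 0.07.

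The counts also changed when the same libraries were left out, which are the most extreme of Bl+ in both contrasts. Without Bl+ replicates 12 and 14, 39 of the longest transcripts were lower and 34 higher on rescaled values, in place of 63 and 8, and 13 of the most abundant were lower and 19 higher, in place of 5 and 24. Over all transcripts that fit gave 547 lower and 485 higher, in place of 447 and 452. Among transcripts at 20 to 100 TPM, 397 of the longest class and 625 of the shortest, the length contrast differed by -0.07 (exact permutation p = 0.516). Within 1000 to 3000 bases, 108 transcripts of the most abundant class and 1969 of the least, the level contrast differed by 0.07 (exact permutation p = 0.325). The limits of the classes and the 4 contrasts were set after seeing the data.

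**Figure D4:**
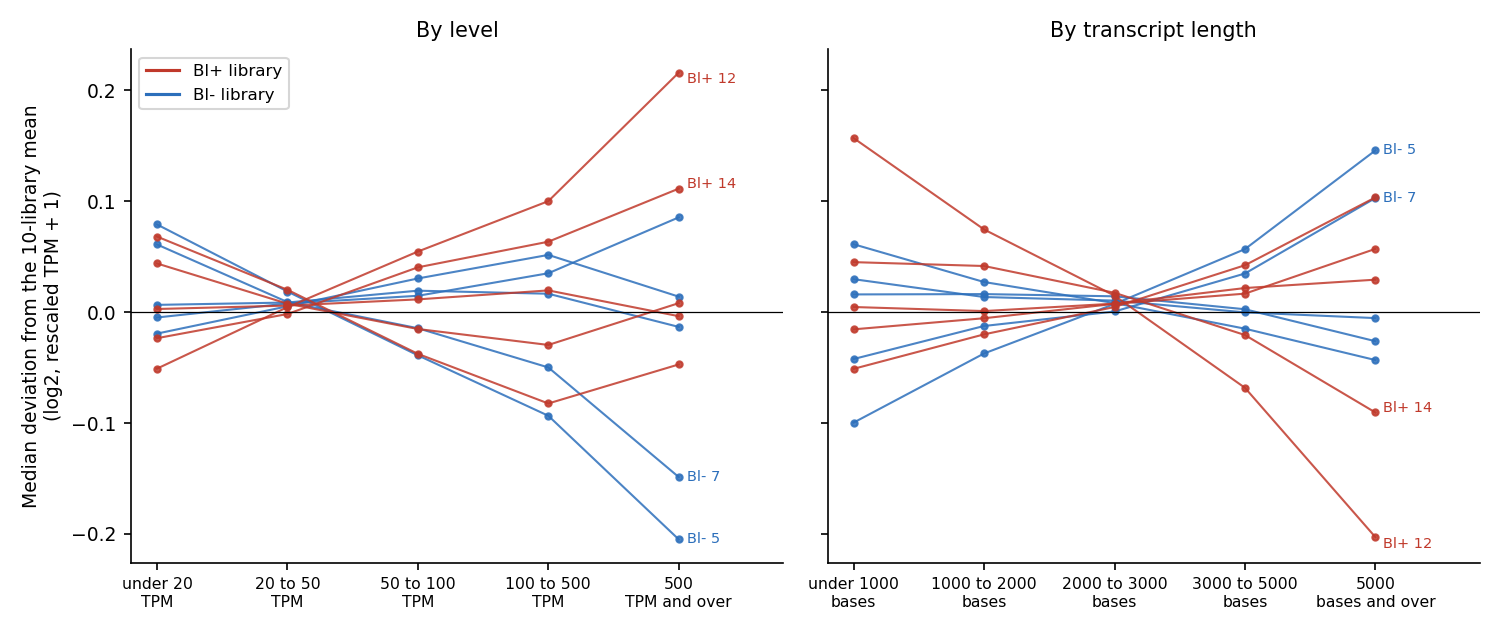
Median deviation of each library from the mean of the 10 libraries (log2, rescaled TPM + 1), by class of mean level (left) and of transcript length (right), 1 line per library, red for Bl+ and blue for Bl-. Lines fan out at both ends, with Bl+ 12 and Bl- 5 farthest apart at 500 TPM and over and at 5000 bases and over, and lines of the groups cross: Bl+ 10 runs beside Bl- 7 in the longest class.

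Bl+ pools were the more varied group. On rescaled values the SD of a transcript between pools had a median of 0.172 log2 units in Bl+ and 0.139 in Bl-, and was wider in Bl+ for 7310 transcripts (69.1%). The root mean square distance between pools averaged 0.414 within Bl+, 0.318 within Bl- and 0.378 between the groups. All 5 Bl- libraries were nearer, on average, to their own group than to Bl+, and all 5 Bl+ libraries were nearer to Bl- than to each other. Bl+ replicate 12 was the farthest, at 0.495 from its own group and 0.478 from Bl-, followed by replicate 14 at 0.435 and 0.408. Without these 2 libraries the mean distance within Bl+ was 0.316, against 0.319 within Bl- and 0.335 between groups. The 2 were the farthest of Bl+ and no Bl- library was left out, so the distance within Bl+ had to fall. The median SD was 0.113 in the 3 remaining Bl+ pools, which is not like for like with an SD over 5 pools.

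**Figure D5:**
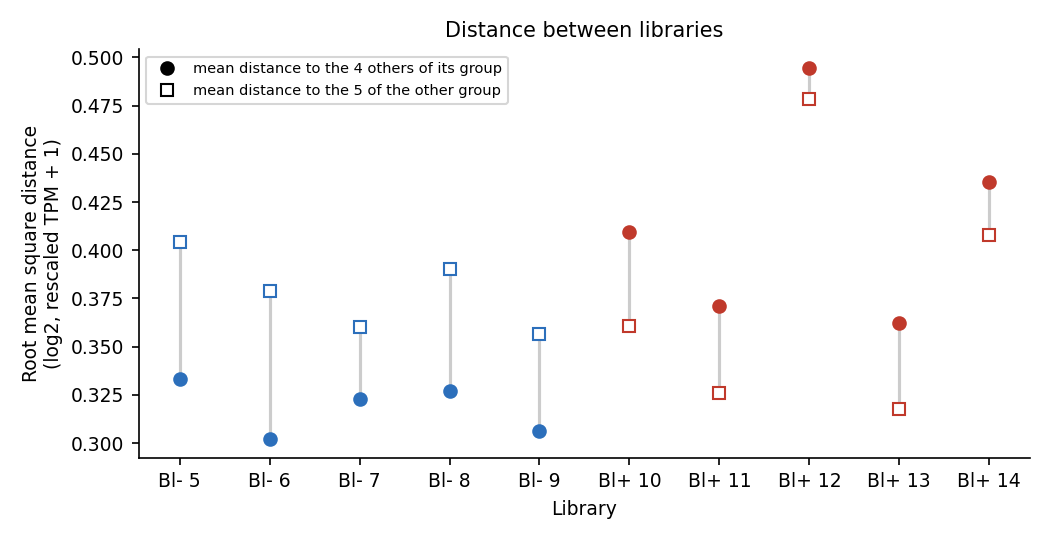
Mean root mean square distance of each library to the others of its own group (filled circles) and to the libraries of the other group (open squares), over rescaled log2(TPM + 1) of 10583 transcripts, on an axis that does not start at 0. Circles lie below squares for all Bl- libraries and above them for all Bl+ libraries, and Bl+ 12 and Bl+ 14 are the highest.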

How the data were processed

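RNA was sequenced from 14 pools of cumulus cells with a stranded poly-A kit, per the labels' protocols. The deposited TPM were made by the authors with kallisto, one value per Ensembl transcript; FastQC and fastp are also listed in the submitters' processing notes. Not given in the sources used here are the versions, transcript release, build and handling of molecular identifiers. Kallisto divides reads among transcripts with shared sequence, so isoform levels are uncertain where isoforms overlap.

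The 10 Bl+ and Bl- libraries were tested as log2(TPM + 1) in limma 3.58.1 (R 4.3.3) with a variance trend, two-sided, adjusted by Benjamini-Hochberg over the 10583 transcripts. The deposited TPM were used as they stand and after rescaling by the trimmed mean of log ratios to the mean library (30% of ratios and 5% of levels trimmed per tail). Differences on this scale understate changes at low levels. Fragments were read from steps of TPM times effective length, scanned from 20 to 50 M (M, 1000000), and 50.6% to 59.6% of low values lay within 0.03 of a whole number. The fit and the rescaling were tried on simulated data with noise drawn separately for each transcript. The fit was given no deviation shared by the transcripts of a library, so this trial does not bear on such shifts.

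Of 37063 reference genes 0 carried an Ensembl identifier and 0 identifiers matched, so 16 planned gene lists were not applied. By rule, the 2 transcripts of smallest p in each direction were named. The transcripts, lists and tests were chosen with earlier results of these data known.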

Additional observations from a re-analysis of the deposited data

Results flagged for a closer look

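Among 28 groups of library values examined with a Dixon test, 3 held a library apart from the rest of its group, where chance gives about 1 in 20. Bl- replicate 8 held 36.8 TPM of ENSBTAT00000024301.4, with the next Bl- library at 25.3 TPM. Without that library the difference of this transcript between Bl+ and Bl- was -0.82 (limma adjusted p = 0.111). Cl- replicate 4, which is outside the comparison, held 93.4 TPM of ENSBTAT00000018261.6, with the next Cl- library at 126 TPM. The other is depth: Bl- replicate 8 had about 39.4 M fragments (M, 1000000), with the next Bl- library at 32.1 M. It stands apart within Bl- only, since Bl+ replicate 13 also had about 39.4 M.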

How the results depend on the processing

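Each alternative below changed 1 setting, among them a fit with the Cl- libraries included, and the cause of a move was not tested unless the setting itself shows it. The count past an adjusted p of 0.05 stayed at 0 in 23 of 24 alternatives on deposited values and in 20 of 21 on rescaled values. The exception in both was the test of all transcripts above 0 TPM, with 2 calls, both of transcripts that never exceeded 0.610 TPM and so lie outside the set. The 4 named transcripts kept their direction in all 24 alternatives, with no limma adjusted p below 0.0696. They were picked for a small p and their groups do not overlap, so leaving out libraries could not turn their direction. On deposited values, the counts at an unadjusted p under 0.05 were 447 lower and 452 higher with trimmed means, 416 and 534 with quantile normalization, and 454 and 457 with median-of-ratios rescaling. More transcripts tested gave 1222 lower of 19420 at a minimum of 1 TPM, and 1716 lower and 580 higher of 32569 above 0 TPM. Each is a smaller share of those tested than the 738 lower and 259 higher of 10583. Array weights gave 441 higher. On rescaled values 722 of 19420 were higher at a minimum of 1 TPM, and 964 lower and 1088 higher of 32569 above 0 TPM. These too are smaller shares than the 447 lower and 452 higher of 10583. Array weights gave 684 lower on rescaled values.

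With 1 library left out there were 0 calls in either scaling. The deposited counts then ran from 526 to 870 lower and from 172 (without Bl- replicate 8) to 357 higher, and the rescaled counts from 302 to 525 lower and from 304 to 520 higher. The length contrast, added after seeing the data, ran from -0.14 to -0.01 (nearest 0 without Bl+ replicate 12). It turned to 0.047 without Bl+ replicates 12 and 14, the lowest Bl+ libraries in this contrast. The contrast by level ran from 0.07 to 0.17. No paired analysis was possible because the labels do not say which pools shared an animal or a day. The replicate numbers only run on from group to group.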
